A study of Sus scrofa with 14 samples.

Results

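The dorsal PAX and ZIC genes examined here are the transcription factor genes *PAX3*, *PAX7*, *PAX6*, *ZIC1*, *ZIC2*, *ZIC5* and *LMX1B*, with the addition of *OC90*, which encodes otoconin 90, a matrix protein of the ear stones. They were chosen by name, as genes that mark dorsal neural plate, otic or myogenic progenitor identity, and earlier results of these libraries were known when they were chosen. For *OC90*, *ZIC1* and *PAX7* at least, the high level at the progenitor stage was known, and these values are taken as those the genes were selected on. The levels at that stage are therefore given as a description with no test. All 8 genes were found among the 15031 genes of the expression table, 7 by symbol and 1, *OC90*, through its Ensembl identifier, and all 8 passed the filter on low values, each through at least 1 group where it is high.

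Paired box genes encode transcription factors that bind DNA through a paired domain. *PAX3* and *PAX7* act in the dorsal neural tube, the neural crest and the dermomyotome, the part of the somite that gives rise to skeletal muscle, and *PAX7* marks the satellite cells of adult muscle. *PAX6* acts in the eye, forebrain, hindbrain and spinal cord. The ZIC genes encode zinc finger factors of the neural plate border, the dorsal neural tube and the cerebellum, and some of them are also active in somites. *LMX1B* encodes a LIM homeodomain factor of the dorsal limb, the kidney and the border between midbrain and hindbrain. None of these genes marks 1 cell type alone.

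RNA was measured in 14 bulk libraries of wild-type pig cells in 5 groups. pgEpiSCs are pluripotent stem cells of the pregastrulation pig epiblast, grown on mouse feeder cells with a GSK3 inhibitor, a tankyrase inhibitor, a Src inhibitor, LIF, activin A and FGF2. They were taken at high passage (pgEpiSCs-high, 3 libraries) and low passage (pgEpiSCs-Low, 3 libraries). pgEpiSCs-MPCs (2 libraries, day 8) are their derivatives after serum-free treatment that began with Wnt activation by CHIR99021 and TGF-β inhibition by SB431542. The next medium held CHIR99021, the BMP inhibitor LDN193189 and FGF2, and the one after it HGF, IGF-1, FGF2 and LDN193189. pgEpiSCs-MCs (3 libraries, day 44) are the muscle cells at the end of that differentiation. Before it they passed through a medium with IGF-1, then a medium with HGF and IGF-1, and last N2 medium. MPC-Dif (3 libraries, day 4) are muscle stem cells isolated from pig muscle and then kept in medium with horse serum, so they differ from pgEpiSCs-MCs in origin, medium and time, which cannot be told apart. The study's methods call the replicates biological without saying what was repeated, so the p-values measure only the spread between these libraries.

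Values are TPM (a transcript level scaled to gene length and to a fixed total per library), and TPM keeps no depth, so the number of reads behind each value is unknown. Between 12150 and 13781 genes lay above 0.5 TPM in a library. The mitochondrial genes took 19.8% to 24.9% of all TPM in pgEpiSCs, 15.8% and 17.1% in pgEpiSCs-MPCs, 6.07% to 6.61% in pgEpiSCs-MCs and 6.74% to 7.10% in MPC-Dif. The 5 pgEpiSC markers (*NANOG*, *LIN28A*, *SOX2*, *LEFTY2*, *DNMT3B*) summed to 5226 to 6030 TPM in pgEpiSCs, 188 to 229.7 TPM in pgEpiSCs-MPCs and 105 to 141 TPM in pgEpiSCs-MCs. *SOX2*, which is also a neural progenitor gene, made up 96.9 to 130.2 TPM of the sum in pgEpiSCs-MCs, where *NANOG*, *LIN28A* and *LEFTY2* each had 2.25 TPM or less. Of the 4 myogenic progenitor markers (*MYF5*, *MYOD1*, *CDH15*, *MEOX1*), 2 lay above 0.5 TPM in both pgEpiSCs-MPCs libraries and 4 in every pgEpiSCs-MCs library. The 7 skeletal muscle markers lay above 0.5 TPM in every pgEpiSCs-MCs and every MPC-Dif library, but not at like levels. *CKM* had 0.549 to 0.757 TPM in pgEpiSCs-MCs, against 5.35 to 6.67 TPM in MPC-Dif. *ACTA1* had 1.315 to 1.645 TPM, against 123 to 130 TPM. *TNNT1* went the other way, at 34.9 to 38.6 TPM against 12.8 to 14.2 TPM, and the ranges of *DES* overlapped. In bulk RNA fewer cells of a type and less RNA per cell cannot be told apart.

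Some of these genes are close copies, and the longest stretches they share are shown because they bear on how far reads can tell the copies apart. The read length kept in the study's methods exceeds each of these stretches, so no kept read lies wholly inside one. The longest exact match between *PAX3* and *PAX7* transcripts was 53 bases, within the coding sequence of both, at chr15:124191132-124191184 (*PAX3*, minus strand) and chr6:77164286-77164338 (*PAX7*, plus strand). The longest between *ZIC2* and *ZIC5* was 50 bases, at chr11:68841835-68841884 (*ZIC2*, plus strand) and chr11:68828816-68828865 (*ZIC5*, minus strand), and the longest between *ZIC1* and *ZIC4* was 41 bases, at chr13:87746384-87746424 (*ZIC1*, plus strand) and chr13:87731963-87732003 (*ZIC4*, minus strand). Sequences and positions are from RefSeq on Sscrofa11.1 and are written along the transcript.
PAX3 and PAX7: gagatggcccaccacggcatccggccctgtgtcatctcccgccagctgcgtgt
ZIC2 and ZIC5: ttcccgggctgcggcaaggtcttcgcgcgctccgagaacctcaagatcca
ZIC1 and ZIC4: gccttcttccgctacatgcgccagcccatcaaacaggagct
*PAX3* and *PAX6*, which carry more distant paired domains, shared at most 14 bases, as did *LMX1B* and its paralog *LMX1A*.

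The ZIC genes *ZIC1* and *ZIC4*, and *ZIC2* and *ZIC5*, stand in head-to-head pairs, and the pairs are shown because their levels are set side by side below. *ZIC1* (chr13:87740769-87750258) and *ZIC4* start 44 bases apart on opposite strands, with a GC share of 70.5% in the interval at chr13:87740725-87740768, here in plus strand letters.
ZIC4 to ZIC1: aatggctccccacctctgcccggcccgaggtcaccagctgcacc
*ZIC2* (chr11:68840802-68845441) and *ZIC5* (chr11:68821733-68830472) diverge over an interval of 10329 bases. *OC90* (chr4:9028483-9054503, plus strand) is shown with the 250 bases before its annotated start, chr4:9028233-9028482, because it reached the highest level of the 8 genes. The capitals mark 2 matches to CAGCAGG, searched on both strands as a core of ZIC motifs.
OC90 upstream: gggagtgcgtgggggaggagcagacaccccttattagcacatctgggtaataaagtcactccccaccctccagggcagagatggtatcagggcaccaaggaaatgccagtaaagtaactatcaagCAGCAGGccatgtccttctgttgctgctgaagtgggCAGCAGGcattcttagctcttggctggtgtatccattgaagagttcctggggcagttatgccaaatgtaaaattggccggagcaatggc
Such a match was in 8.17% of the 19556 upstream windows of this length and in none of those of the other 7 genes. The letters CTTTGA, a core of TCF and LEF motifs, were in 10.7% of all windows on either strand and, among the 8 genes, in that of *ZIC1*, where the match lies inside *ZIC4*. A match is a description of letters and not a binding site.

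All 8 genes were highest or near highest at the progenitor stage, and they fell into different classes in the cells before and after it. In pgEpiSCs, *ZIC2* and *ZIC5* were already high, *OC90* lay between 0.504 and 4.18 TPM, and the other 5 were below 1 TPM there. In pgEpiSCs-MCs, *PAX3* and *PAX6* stood close to their progenitor level while *OC90* and *LMX1B* were far below it. In MPC-Dif, *ZIC1* and *PAX6* were the 2 genes with more than 5 TPM.

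*PAX3* had 0 TPM in each of the 3 pgEpiSCs-high libraries and 0.154, 0 and 0 TPM in pgEpiSCs-Low. It stood at 118 and 121 TPM in pgEpiSCs-MPCs, 103, 113 and 125 TPM in pgEpiSCs-MCs and 0.898, 0.086 and 0.567 TPM in MPC-Dif. The pgEpiSCs-MPCs and pgEpiSCs-MCs libraries overlapped, and both lay far above the other groups, among which the ranges of MPC-Dif and pgEpiSCs-Low and those of both passages overlapped.

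*PAX7* was lower than *PAX3* at both later stages of the pgEpiSCs series. It had 0.303, 0.26 and 0.112 TPM in pgEpiSCs-high, 0.459, 0.732 and 0.124 TPM in pgEpiSCs-Low, 20.6 and 25.5 TPM in pgEpiSCs-MPCs, 8.62, 7.92 and 9.20 TPM in pgEpiSCs-MCs and 0.153, 0.221 and 0.173 TPM in MPC-Dif. The ranges of pgEpiSCs-MPCs and pgEpiSCs-MCs were apart, and those of the other 3 groups overlapped below 1 TPM. *PAX7* amounted to 17.5% and 21.0% of *PAX3* in pgEpiSCs-MPCs and to 7.01% to 8.38% in pgEpiSCs-MCs.

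*PAX6* had 0.31, 0 and 0.137 TPM in pgEpiSCs-high and 0 TPM in every pgEpiSCs-Low library. It reached 45.9 and 49.7 TPM in pgEpiSCs-MPCs, 57.2, 55.3 and 55.4 TPM in pgEpiSCs-MCs and 25.8, 25.3 and 21.4 TPM in MPC-Dif. It was the one of the 8 genes with its highest group mean in pgEpiSCs-MCs, and the ranges of the 3 groups of differentiated cells did not overlap.

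**Figure D1:**
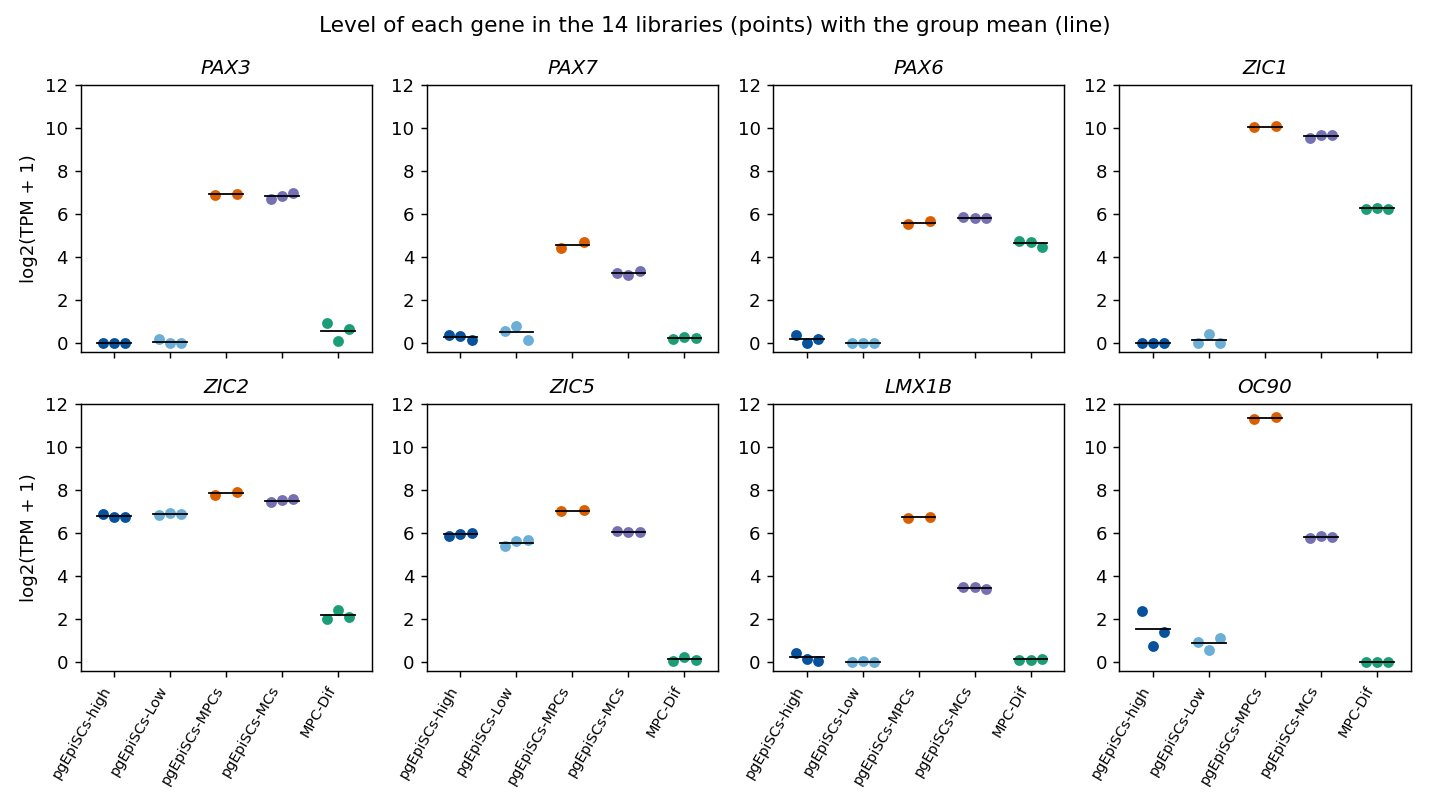
Level of each gene as log2(TPM + 1) on the vertical axis, with the 5 groups along the horizontal axis, 1 point for each of the 14 libraries and a line at the group mean. *PAX3*, *PAX7*, *PAX6*, *ZIC1* and *LMX1B* lie below 1 TPM in every pgEpiSCs library, *ZIC2* and *ZIC5* do not, and *OC90* has the highest points of the 8 panels, at 2540 and 2734 TPM in pgEpiSCs-MPCs.

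*ZIC1* was listed at 0 in the 3 pgEpiSCs-high libraries and had 0, 0.363 and 0 TPM in pgEpiSCs-Low. It stood at 1048 and 1094 TPM in pgEpiSCs-MPCs, 738, 804 and 812 TPM in pgEpiSCs-MCs and 74.7, 77.2 and 75.0 TPM in MPC-Dif, 3 ranges that did not overlap. Among all genes of a library it ranked 89 and 86 in pgEpiSCs-MPCs, 161 to 174 in pgEpiSCs-MCs and 2040 to 2174 in MPC-Dif. Its head-to-head partner *ZIC4*, a zinc finger gene of the cerebellum, had 257 and 292 TPM in pgEpiSCs-MPCs, 169.6 to 194 TPM in pgEpiSCs-MCs and 1.94 to 2.68 TPM in MPC-Dif. *ZIC4* thus amounted to 24.5% and 26.7% of *ZIC1* in pgEpiSCs-MPCs, 22.9% to 23.9% in pgEpiSCs-MCs and 2.58% to 3.59% in MPC-Dif. The ratio in MPC-Dif lay below that in each library of the pgEpiSCs derivatives.

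*ZIC2*, which is active from the epiblast onward and acts in forebrain and neural tube formation, had 117, 107 and 108 TPM in pgEpiSCs-high and 116, 121 and 119 TPM in pgEpiSCs-Low. It stood at 219 and 243 TPM in pgEpiSCs-MPCs, 172, 183 and 189.8 TPM in pgEpiSCs-MCs and 3.08, 4.42 and 3.29 TPM in MPC-Dif. The ranges of both passages overlapped, and no others did.

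*ZIC5* had 58.0, 61.1 and 62.7 TPM in pgEpiSCs-high, 41.1, 48.5 and 50.3 TPM in pgEpiSCs-Low, 130.1 and 132.6 TPM in pgEpiSCs-MPCs, 68.3, 65.1 and 65.4 TPM in pgEpiSCs-MCs and 0.041, 0.196 and 0.074 TPM in MPC-Dif. It was the one gene of the 8 for which no ranges of groups that neighbour each other in level overlapped. As a share of *ZIC2* it took 49.6% to 58.1% in pgEpiSCs-high, 35.5% to 42.3% in pgEpiSCs-Low, 59.3% and 54.6% in pgEpiSCs-MPCs and 34.5% to 39.7% in pgEpiSCs-MCs. The pair therefore did not keep 1 ratio over the series.

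*LMX1B* had 0.371, 0.127 and 0.046 TPM in pgEpiSCs-high, 0, 0.05 and 0 TPM in pgEpiSCs-Low, 103.5 and 107.7 TPM in pgEpiSCs-MPCs, 10.4, 10.3 and 9.57 TPM in pgEpiSCs-MCs and 0.094, 0.09 and 0.113 TPM in MPC-Dif. The pgEpiSCs-MPCs and pgEpiSCs-MCs ranges were apart from each other and from all others. Its paralog *LMX1A*, a factor of the roof plate, was close to it in pgEpiSCs-MPCs, where *LMX1B* amounted to 92.0% and 95.7% of *LMX1A*, and above it in pgEpiSCs-MCs, where *LMX1B* amounted to 28.0% to 35.6%.

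*OC90* had 4.18, 0.717 and 1.69 TPM in pgEpiSCs-high and 0.903, 0.504 and 1.20 TPM in pgEpiSCs-Low. It reached 2540 and 2734 TPM in pgEpiSCs-MPCs, which placed it 32nd and 25th among all genes of those libraries, and stood at 53.1, 57.6 and 55.6 TPM in pgEpiSCs-MCs. It was listed at 0 in each of the 3 MPC-Dif libraries. Apart from both passages of pgEpiSCs, no ranges overlapped.

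The 8 genes together summed to 169 to 180.3 TPM in pgEpiSCs-high, 158 to 171 TPM in pgEpiSCs-Low, 4225 and 4508 TPM in pgEpiSCs-MPCs, 1211 to 1322 TPM in pgEpiSCs-MCs and 101 to 107.5 TPM in MPC-Dif. *ZIC2* and *ZIC5* made up 97.1% to 99.4% of that sum in pgEpiSCs-high and 99.0% to 99.2% in pgEpiSCs-Low. *OC90* took 60.1% and 60.7% of it in pgEpiSCs-MPCs, against 24.8% and 24.3% for *ZIC1*. In pgEpiSCs-MCs, *ZIC1* took 61.0% to 62.0%, and in MPC-Dif 71.3% to 74.5%.

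**Figure D2:**
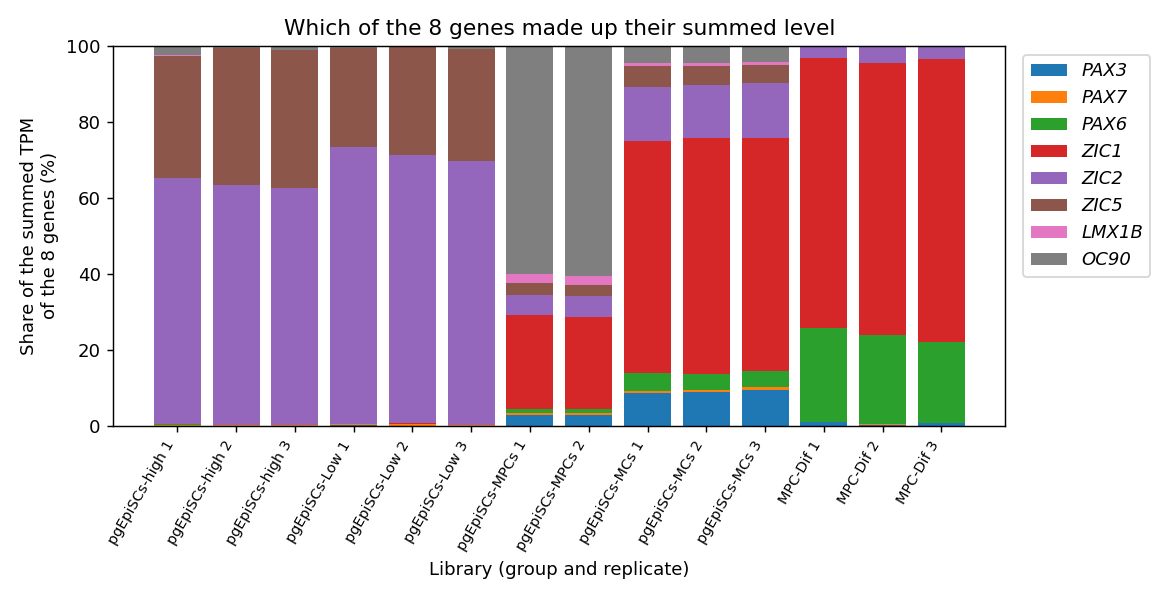
Share of the summed TPM of the 8 genes taken by each gene, in percent, as a stacked bar for each of the 14 libraries along the horizontal axis. *ZIC2* and *ZIC5* fill the bars of pgEpiSCs, *OC90* takes 60.1% and 60.7% of the bars of pgEpiSCs-MPCs, and *ZIC1* is the largest share in pgEpiSCs-MCs and MPC-Dif.

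In pgEpiSCs-MPCs against pgEpiSCs (the mean of both passages), each of the 8 genes was higher in both pgEpiSCs-MPCs libraries than in any of the 6 pgEpiSCs libraries. Of all 14957 genes tested, 47.5% were called higher and 21.4% lower in this comparison, and nothing is read from the count of these genes because high levels in these libraries chose them. On the log2(TPM + 1) scale, which understates the change of genes near 0, the differences were 10.16 for *OC90*, 9.99 for *ZIC1*, 6.88 for *PAX3*, 6.61 for *LMX1B*, 5.51 for *PAX6* and 4.18 for *PAX7*. *ZIC2* and *ZIC5*, which had measurable levels in pgEpiSCs, stood 2.02-fold and 2.45-fold above them in TPM. The median difference of all genes was 0.24 as deposited and 0 after median-of-ratios scaling, under which *ZIC2* differed by 0.69 and *ZIC5* by 0.98 on the log2 scale. Of the genes called, 69.0% were higher as deposited, 50.6% after median-of-ratios scaling and 46.4% after quantile normalization.

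Genes of the dorsal neural tube and roof plate were higher in pgEpiSCs-MPCs as a whole list. Of 14 such genes tested, 14 rose and 0 fell (limma with Benjamini-Hochberg adjustment), with a median difference of 4.99 on the log2(TPM + 1) scale against 0.24 over all genes. Over all genes, 47.5% were called higher. This list and the others used below were written with earlier results of these data known. Their counts are therefore a description in every comparison and no independent test of identity. *RSPO3*, which encodes a secreted enhancer of Wnt signalling, averaged 413 ± 3.44 TPM in pgEpiSCs-MPCs (SD, n = 2), against 1.14 ± 0.259 TPM in pgEpiSCs-high and 1.51 ± 0.175 TPM in pgEpiSCs-Low (n = 3 each). *WNT3A*, a Wnt ligand of the dorsal midline, averaged 242 ± 5.61 TPM in pgEpiSCs-MPCs, against 5.72 ± 0.871 and 6.66 ± 2.23 TPM in pgEpiSCs-high and pgEpiSCs-Low. *WNT1* (60.6 ± 11.6 TPM), the bHLH gene *OLIG3* (52.3 ± 1.92 TPM) and the roof plate BMP gene *GDF7* (25.6 ± 3.67 TPM) were listed at 0 in every pgEpiSCs library.

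Of 6 other PAX and ZIC genes tested, 5 rose and 0 fell in pgEpiSCs-MPCs. *ZIC4* stood at 274.5 ± 25.2 TPM and *PAX5*, a factor of the midbrain-hindbrain border and of B cells, at 112 ± 1.65 TPM in pgEpiSCs-MPCs (n = 2). *PAX2* stood at 17.1 ± 0.313 TPM in pgEpiSCs-MPCs and was listed at 0 in every pgEpiSCs library.

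Of 11 midbrain and hindbrain genes, 9 rose and 2 fell, with a median of 2.71. *EN2*, an engrailed gene of the midbrain and cerebellum, stood at 156 ± 12.5 TPM in pgEpiSCs-MPCs, against 0.0213 ± 0.0369 and 0.025 ± 0.0433 TPM in pgEpiSCs-high and pgEpiSCs-Low. *OTX2*, a factor of epiblast, forebrain and midbrain, was 214 ± 2.69 TPM in pgEpiSCs-MPCs, against 212 ± 11.7 and 309.7 ± 10.0 TPM. Of 10 forebrain and eye genes 7 rose and 2 fell (median 1.39), and of 8 ventral and intermediate neural tube genes 5 rose and 2 fell (median 0.45). The ventral list held 13 genes, and *OLIG2* was among those not analysed here. The 2 that fell in the ventral list were *FOXA2*, which is also an endoderm factor and was listed at 0 in pgEpiSCs-MPCs against 14.5 ± 2.51 and 59.7 ± 2.14 TPM in pgEpiSCs-high and pgEpiSCs-Low, and the floor plate ligand gene *SHH*, at 0.526 ± 0.0481 TPM against 3.89 ± 1.12 and 6.56 ± 0.0667 TPM.

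Regulators of the otic placode were divided. Of 14 tested, 5 rose and 2 fell, with a median of 0.19 against 0.24 over all genes. *EYA2*, a transcriptional coactivator of placodes and muscle, rose to 30.8 ± 3.46 TPM in pgEpiSCs-MPCs, against 0.437 ± 0.299 and 0.559 ± 0.150 TPM in pgEpiSCs-high and pgEpiSCs-Low. *GATA3* (0.024 ± 0.0339 TPM) and *DLX3* (0.145 ± 0.0134 TPM), which act early in the otic placode, were near 0 in pgEpiSCs-MPCs. Of 4 otic matrix and hair cell genes 3 rose and 1 fell, among them *COCH*, the cochlin gene of the inner ear matrix, at 58.8 ± 8.13 TPM against 1.19 ± 0.237 and 1.42 ± 0.342 TPM. The other 7 genes of that list, and *HMX3* of the regulators, were not analysed here.

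Of 15 neural progenitor and neuron genes 12 rose and 2 fell (median 2.66), and of 11 neural crest genes 6 rose and 2 fell (median 0.46). The crest genes *FOXD3*, which also acts in pluripotent cells, and *SOX10* were listed at 0 in pgEpiSCs-MPCs, whereas *TFAP2B* stood at 11.9 ± 0.453 TPM there and at 0 in pgEpiSCs. Of 12 myogenic and satellite cell genes 9 rose and 1 fell (median 1.60). *MYOD1*, the muscle determination factor, stood at 12.6 ± 3.07 TPM in pgEpiSCs-MPCs, against 0 TPM in pgEpiSCs-high and 0.0323 ± 0.056 TPM in pgEpiSCs-Low, and *MYF5* fell to 0.218 ± 0.120 TPM, against 0.537 ± 0.525 and 2.76 ± 0.938 TPM. The paraxial mesoderm, somite and dermomyotome list held 19 genes, of which 15 were tested. Of these 15, 4 rose and 1 fell, with a median of 0. *TBXT* and *MSGN1* were among the list genes not analysed here. The dermomyotome gene *MEOX1*, which rose, had 0.756 ± 0.650 TPM in pgEpiSCs-MPCs and was listed at 0 in pgEpiSCs. The sum of the 4 neuron markers was 114 to 119 TPM in pgEpiSCs-MPCs, against 23.8 to 28.3 TPM in pgEpiSCs. The 4 smooth muscle and mural markers summed to 451 to 473 TPM, against 3.77 to 8.28 TPM, the 7 skeletal muscle markers to 243 to 257 TPM, against 18.3 to 29.1 TPM, and the 4 epithelial markers to 43.1 to 45.5 TPM, against 239 to 379.8 TPM. *ACTA2* made up 410 and 383 TPM of the smooth muscle and mural sum in pgEpiSCs-MPCs and *PDGFRB* 58.8 and 63.5 TPM, while *RGS5* had 0.155 and 0.034 TPM. *TNNT1* alone made up 221 and 236 TPM of the skeletal muscle sum in pgEpiSCs-MPCs. Every other skeletal muscle marker had 14.1 TPM or less there, with *MYH3* at 2.73 and 2.13 TPM, against 1.95 to 3.84 TPM in pgEpiSCs. The part of any of these in the levels of the 8 genes was not tested.

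**Figure D3:**
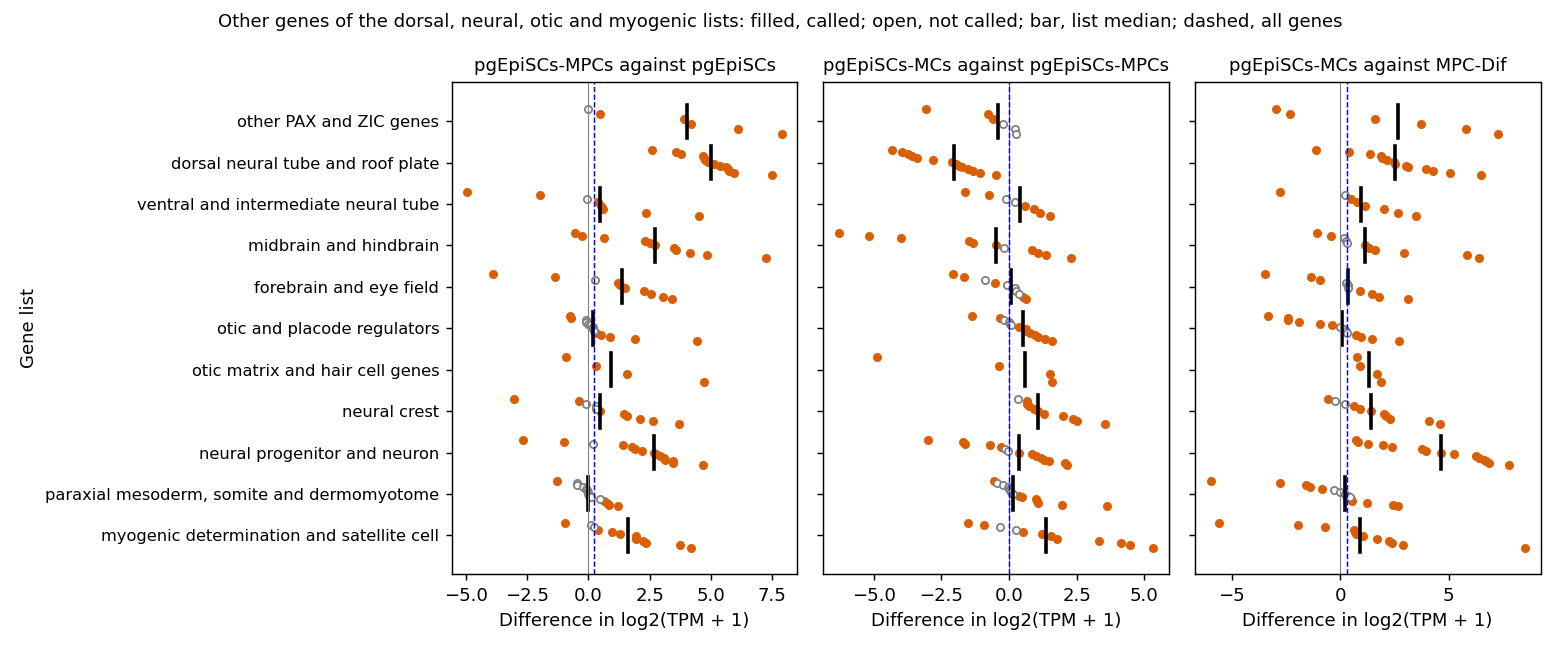
Difference in log2(TPM + 1) of each tested gene (points) of 11 gene lists (rows), in pgEpiSCs-MPCs against pgEpiSCs (left), pgEpiSCs-MCs against pgEpiSCs-MPCs (middle) and pgEpiSCs-MCs against MPC-Dif (right), with filled points called, open points not called, a black bar at the list median and a dashed line at the median of all genes. Points of genes listed at 0 in 1 of the compared groups show the fitted difference and no fold, and all 14 genes of the dorsal neural tube list lie right of 0 in the left panel and left of 0 in the middle one, comparisons that share the pgEpiSCs-MPCs libraries.

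Between pgEpiSCs-MCs and pgEpiSCs-MPCs the 8 genes spread over a wide range. This comparison uses the same pgEpiSCs-MPCs libraries, so it is a description too, beside 34.5% of all genes called higher and 36.1% called lower. As a share of the pgEpiSCs-MPCs mean, pgEpiSCs-MCs held 117% of *PAX6*, 95.1% of *PAX3*, 78.5% of *ZIC2*, 73.3% of *ZIC1*, 50.4% of *ZIC5*, 37.3% of *PAX7*, 9.54% of *LMX1B* and 2.1% of *OC90*. The difference of *PAX3* was -0.08 on the log2(TPM + 1) scale as deposited and 0.0015 after median-of-ratios scaling, so its direction depends on the scaling. For *PAX6* the difference was 0.22 as deposited and 0.06 without the mitochondrial genes.

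Genes of the dorsal neural tube and roof plate fell in pgEpiSCs-MCs against pgEpiSCs-MPCs, 14 of 14 tested, with a median of -2.04 against -0.01 over all genes. *GDF7* fell to 0.342 ± 0.193 TPM in pgEpiSCs-MCs (n = 3), against 25.6 ± 3.67 TPM in pgEpiSCs-MPCs (n = 2). *WNT3A* fell to 14.7 ± 2.73 TPM, against 242 ± 5.61 TPM, *OLIG3* to 3.52 ± 1.07 TPM, against 52.3 ± 1.92 TPM, and *RSPO3* to 94.5 ± 5.22 TPM, against 413 ± 3.44 TPM. Of the 6 other PAX and ZIC genes 0 rose and 3 fell, *PAX5* among them at 12.5 ± 0.291 TPM, against 112 ± 1.65 TPM, and *ZIC4*. *PAX2* (20.4 ± 2.04 TPM, against 17.1 ± 0.313 TPM) was not called.

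Among midbrain and hindbrain genes 4 rose and 6 fell in pgEpiSCs-MCs. *FGF17*, a growth factor gene of the midbrain-hindbrain border, fell to 2.42 ± 1.70 TPM, against 236 ± 12.7 TPM in pgEpiSCs-MPCs, and *GBX2*, a hindbrain factor, to 0.125 ± 0.0638 TPM, against 16.9 ± 0.107 TPM. Of 10 forebrain and eye genes 2 rose and 3 fell, and of 8 ventral and intermediate neural tube genes 4 rose and 2 fell. Of 14 otic regulators 8 rose and 2 fell, and of the 4 otic matrix genes 2 rose and 2 fell, with *COCH* at 1.16 ± 0.880 TPM, against 58.8 ± 8.13 TPM. Of 11 neural crest genes 10 rose and 0 fell (median 1.08), with *SOX9* at 113 ± 2.89 TPM, against 19.0 ± 0.539 TPM, and *SOX10* at 0.586 ± 0.205 TPM in pgEpiSCs-MCs.

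Of 12 myogenic and satellite cell genes 8 rose and 2 fell (median 1.38) in pgEpiSCs-MCs. *MYF5* rose to 48.1 ± 0.190 TPM, against 0.218 ± 0.120 TPM in pgEpiSCs-MPCs, and the late myogenic factor *MYOG* to 54.8 ± 10.4 TPM, against 2.17 ± 0.763 TPM. Of 15 paraxial mesoderm genes 7 rose, *MEOX1* among them, and 1 fell, with *MEOX1* at 20.3 ± 1.88 TPM, and of 15 neural progenitor and neuron genes 8 rose and 5 fell. *STMN2*, a gene of neurite growth, rose to 321 ± 27.1 TPM, against 74.7 ± 4.92 TPM. The summed neuron markers stood at 404 to 471 TPM in pgEpiSCs-MCs, against 114 to 119 TPM in pgEpiSCs-MPCs, and the summed fibroblast markers at 5976 to 6249 TPM, against 16.2 to 18.4 TPM. *COL1A1* made up 5928 to 6201 TPM of the fibroblast sum in pgEpiSCs-MCs. There *DCN* had 13.8 to 15.9 TPM, *LUM* 27.6 to 30.5 TPM and *PDGFRA* 2.82 to 4.03 TPM. The smooth muscle and mural markers stood at 2351 to 2515 TPM, against 451 to 473 TPM. *ACTA2* made up 1991 to 2166 TPM of that sum in pgEpiSCs-MCs and *PDGFRB* 339 to 353 TPM. *MYH11* had 7.68 to 9.19 TPM and *RGS5* 0.041 to 0.313 TPM there. The 2 glia markers measured, mostly *GFAP*, stood at 66.8 to 70.2 TPM, against 0.993 to 1.45 TPM. The part of any of these marker sets in the levels of the 8 genes was not tested.

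The comparison of pgEpiSCs-MCs with MPC-Dif asks how muscle cells made from pgEpiSCs differ from muscle cells grown out of muscle stem cells. The differences do not use the pgEpiSCs-MPCs libraries, which enter only the spread estimated over all 14 libraries. The level of *PAX7* in pgEpiSCs-MCs was known when the genes were chosen, so *PAX7* is given as a description. All 8 genes were higher in pgEpiSCs-MCs, beside 50.0% of all genes tested called higher and 29.1% lower. Nothing is read from that count, because *PAX7*, *ZIC5*, *LMX1B* and *OC90* passed the filter on low values through pgEpiSCs or their derivatives and not through MPC-Dif. These genes are therefore described here with no p. Of the genes called, 63.2% were higher as deposited, 50.5% after median-of-ratios scaling and 45.8% after quantile normalization, and the median of all genes was 0.29, 0.03 and -0.08.

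*PAX3* differed by 6.27 on the log2(TPM + 1) scale (standard error 0.16, adjusted p = 1.61e-13) and *ZIC2* by 5.32 (standard error 0.09, adjusted p = 2.36e-15), both from limma with Benjamini-Hochberg adjustment over all genes. *ZIC1* differed by 3.36 (standard error 0.10, adjusted p = 6.13e-13, from the same test). The described differences were 5.93 for *ZIC5*, 3.33 for *LMX1B* and 3.02 for *PAX7*. *PAX6* had the smallest difference, 1.18 (standard error 0.11, adjusted p = 1.64e-07). *OC90* was listed at 0 in MPC-Dif, which allows no fold, and no p is given for it. For genes near 0 in MPC-Dif the size depends on the processing. Over the 16 alternatives it ran from 5.80 to 7.83 for *PAX3*, which is near 0 there too, and from 5.52 to 8.42 for *ZIC5*. It ran from 2.57 to 5.68 for *LMX1B* and 2.14 to 4.95 for *PAX7*, against 3.00 to 3.40 for *ZIC1*. The order of *LMX1B*, *PAX7* and *ZIC1* is therefore not fixed. In TPM, *ZIC2* was 50.5-fold, *ZIC1* 10.4-fold and *PAX6* 2.32-fold higher in pgEpiSCs-MCs than in MPC-Dif. No library of MPC-Dif reached the lowest library of pgEpiSCs-MCs for any of the 8 genes. Nothing is read from this separation, because 50.0% of all genes tested were called higher. The share of all genes that lay apart in this way was not measured.

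**Figure D4:**
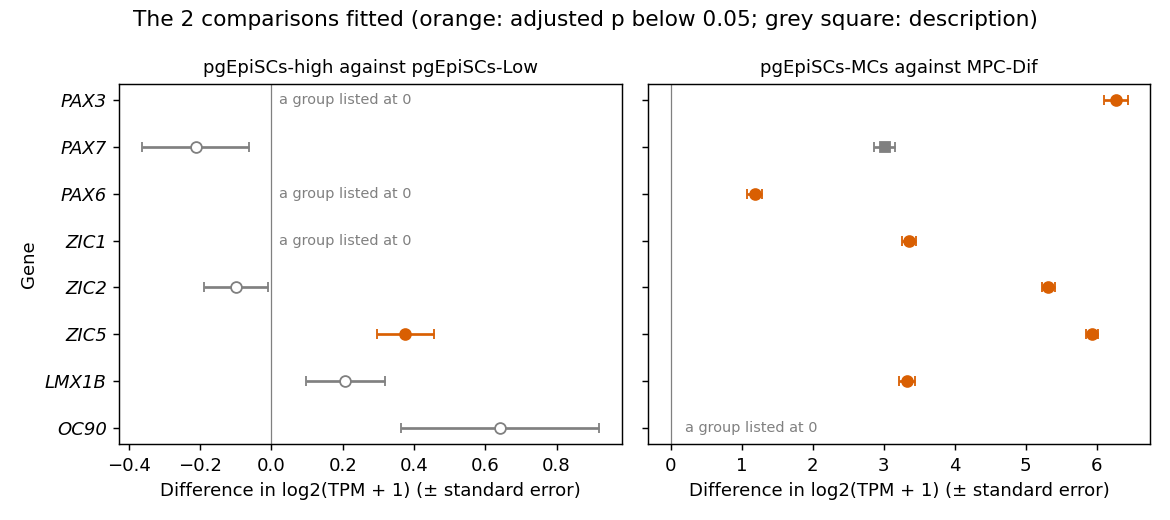
Difference in log2(TPM + 1) with its standard error from limma for each of the 8 genes (rows), in pgEpiSCs-high against pgEpiSCs-Low (left) and pgEpiSCs-MCs against MPC-Dif (right), on axes of different scale, with filled points at an adjusted p below 0.05 and *PAX7* on the right as a grey square. On the right, *PAX7*, *ZIC5* and *LMX1B* are given as descriptions, and the filled points of *ZIC5* and *LMX1B* there are not read as calls. *ZIC5* is the called gene on the left, at 0.38, and the 7 genes drawn on the right lie between 1.18 (*PAX6*) and 6.27 (*PAX3*), while genes listed at 0 in every library of 1 group are named without a point.

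In the same comparison, 13 of 14 dorsal neural tube genes were higher and 1 lower in pgEpiSCs-MCs (median 2.52), the lower one being *MSX2*, a homeobox gene also active in mesenchyme and bone, at 22.0 ± 3.79 TPM, against 49.2 ± 2.55 TPM in MPC-Dif. All 15 neural progenitor and neuron genes were higher (median 4.65), with *SOX2* at 118 ± 18.7 TPM in pgEpiSCs-MCs, against 0.0167 ± 0.0289 TPM in MPC-Dif. Of the 6 other PAX and ZIC genes 4 were higher and 2 lower, with *PAX2* at 20.4 ± 2.04 TPM, against 5.97 ± 0.986 TPM. The 2 lower ones were *PAX1* and *PAX9*, factors of the sclerotome. Of 11 midbrain and hindbrain genes 6 were higher and 2 lower, and *EN1*, an engrailed gene of the midbrain and the somites, stood at 28.9 ± 2.97 TPM in pgEpiSCs-MCs, against 12.6 ± 1.35 TPM in MPC-Dif.

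Of 8 ventral and intermediate neural tube genes 6 were higher and 1 lower in pgEpiSCs-MCs than in MPC-Dif, of 10 forebrain and eye genes 4 were higher and 3 lower, and of 11 neural crest genes 8 were higher and 1 lower. The otic regulators were divided, 4 higher and 6 lower, and the 4 otic matrix genes were all higher. Of 15 paraxial mesoderm genes 5 were higher and 5 lower, the largest difference being that of *MEOX2*, a somite and limb muscle gene, at 0.344 ± 0.228 TPM in pgEpiSCs-MCs, against 83.0 ± 3.64 TPM in MPC-Dif. Of 12 myogenic and satellite cell genes 9 were higher and 3 lower, with *CXCR4*, a chemokine receptor gene of many migrating cells, at 851.5 ± 5.66 TPM, against 1.37 ± 0.492 TPM, and *MYOG* at 54.8 ± 10.4 TPM, against 211.6 ± 10.9 TPM. The summed neuron markers were 404 to 471 TPM in pgEpiSCs-MCs, against 1.56 to 2.81 TPM in MPC-Dif, and the summed skeletal muscle markers 346.5 to 393.5 TPM, against 763 to 833 TPM. The glia markers summed to 66.8 to 70.2 TPM, against 0 TPM, and the fibroblast markers to 5976 to 6249 TPM, against 11090 to 11520 TPM. *COL1A1*, the largest part of both fibroblast sums, had 5928 to 6201 TPM in pgEpiSCs-MCs, against 7373 to 7713 TPM in MPC-Dif. The other fibroblast markers lay further apart, *DCN* at 13.8 to 15.9 against 2908 to 2957 TPM, *LUM* at 27.6 to 30.5 against 578 to 626 TPM and *PDGFRA* at 2.82 to 4.03 against 216 to 286 TPM. The part of any of these in the differences of the 8 genes was not tested.

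Between the passages of pgEpiSCs, 1 of the 8 genes was called. *ZIC5* was higher in pgEpiSCs-high by 0.38 on the log2(TPM + 1) scale (standard error 0.08, adjusted p = 0.00437), or 1.30-fold in TPM, and was higher in each of 3 pgEpiSCs-high libraries than in each of 3 pgEpiSCs-Low libraries. Of all genes 8.36% were called higher and 15.7% lower, so 1 call among 8 genes is near the background. With a pseudocount of 0.1 in place of 1 the adjusted p of *ZIC5* was 0.186, while *PAX6* (adjusted p = 0.0443) and *LMX1B* (adjusted p = 0.0365), both below 0.4 TPM in every pgEpiSCs library, were called. Over the 16 alternatives the adjusted p of *ZIC5* ran from 0.00102 to 0.186 and its difference from 0.29 to 0.46.

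*ZIC2*, at 0.934 of its pgEpiSCs-Low mean in pgEpiSCs-high, differed by -0.10 (standard error 0.09, adjusted p = 0.480). *OC90* differed by 0.64 (standard error 0.28, adjusted p = 0.113) and was called without pgEpiSCs-high replicate 2, at 1.02 with an adjusted p of 0.00639. *PAX7* (-0.21, standard error 0.15, adjusted p = 0.344) and *LMX1B* (0.21, standard error 0.11, adjusted p = 0.204) were below 1 TPM in both groups. *PAX3* and *ZIC1* were listed at 0 throughout pgEpiSCs-high and *PAX6* throughout pgEpiSCs-Low, with adjusted p of 0.827, 0.316 and 0.233, and no fold can be given. Of the genes called between the passages, 34.8% were higher in pgEpiSCs-high as deposited, 53.9% after median-of-ratios scaling and 51.8% after quantile normalization.

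Of the other genes of the dorsal neural tube list 4 were higher and 2 lower in pgEpiSCs-high than in pgEpiSCs-Low. Among the 6 other PAX and ZIC genes 1 was higher and 1 lower, the higher one being *PAX5* at 0.907 ± 0.0787 TPM in pgEpiSCs-high, against 0.449 ± 0.100 TPM in pgEpiSCs-Low. *FOXA2* was lower, at 14.5 ± 2.51 TPM, against 59.7 ± 2.14 TPM, in a list with 1 higher and 2 lower of 8. The midbrain and hindbrain list had 2 higher and 3 lower, the forebrain list 0 and 3, the otic regulators 1 and 0, the otic matrix genes 0 and 1, the neural crest list 1 and 2, the neural list 2 and 5, the paraxial mesoderm list 1 and 1 and the myogenic list 0 and 2.

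The genes whose pattern over the 14 libraries was most like that of each gene were found by Pearson's r of log2(TPM + 1) among 11223 genes with a symbol and a group mean of at least 5 TPM. The libraries of a group share their condition, so with 5 groups many genes reach a high r, and no p is given. The 3 nearest to *PAX3* were *ERBB4* (0.997), *WNT7B* (0.996) and *POLR3B* (0.995), and those to *PAX7* were *HKDC1* (0.996), *OTX1* (0.996) and *EFCC1* (0.994). Nearest to *PAX6* were *EN1* (0.996), *SDC2* (0.996) and *ATP11A* (0.995), nearest to *ZIC1* were *MEGF9* (0.997), *PAX2* (0.996) and *BOC* (0.995). *ZIC2* had *PLEKHA7* (0.998), *ZNF711* (0.998) and *SLAIN1* (0.997), and *ZIC5* had *CACHD1* (0.999), *PLCH1* (0.997) and *ZNF711* (0.995). For *LMX1B* they were *PRDM12* (0.998), *WNT1* (0.997) and *CASZ1* (0.995), and for *OC90* *PAX5* (0.997), *PRTG* (0.994) and *CDH7* (0.993).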

How the data were processed

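Poly-A RNA libraries of pig cells were sequenced, and the authors mapped reads to Sscrofa11.1 with HISAT2, counted them with featureCounts and deposited TPM per gene. The annotation release is not given in the sources used here. TPM holds no read counts, so count tests were not run.

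The linear model of limma 3.58.1 (R 4.3.3) was applied to log2(TPM + 1), with 1 mean for each of 5 groups and an intensity trend, for 14957 genes above 0.5 TPM in at least 50% of the libraries of a group. P-values were adjusted by Benjamini-Hochberg and genes called below 0.05. The fit was tested on simulated data. No 2 libraries had the same TPM in more than 7.26% of genes, so none was counted as a repeat.

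The 8 genes and the 11 gene lists (149 genes, 120 tested) were chosen with earlier results of these data known. Named list genes are up to 4 called genes with the largest difference per comparison and up to 2 that a reader would look for. Alternatives changed the pseudocount, filter, scaling, groups in the fit, trend, replicate block, passage of pgEpiSCs and single libraries. Sequences are from the RefSeq annotation of the same build. Results for some list genes are not reported here.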

Additional observations from a re-analysis of the deposited data

How the results depend on the processing

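In pgEpiSCs-MCs against MPC-Dif *PAX3*, *PAX6*, *ZIC1* and *ZIC2*, which also passed the filter through MPC-Dif, stayed called under each of 16 alternatives. In pgEpiSCs-high against pgEpiSCs-Low, 2 of the 8 genes were called higher with a pseudocount of 0.1 (*PAX6* and *LMX1B*, with *ZIC5* at 0.38 no longer called), and 1 to 2 when single libraries were left out, the 2 being *ZIC5* and *OC90* without pgEpiSCs-high replicate 2. Fitting only the compared groups left 1941 genes called in place of 3595, with 7 list genes higher and 12 lower in place of 13 and 22. That fit uses 6 of 14 libraries. In pgEpiSCs-MCs against pgEpiSCs-MPCs the difference of *PAX3* turned to 0.0015 after median-of-ratios scaling. No other difference of the 8 genes changed sign in any comparison. Leaving out a pgEpiSCs-MPCs library leaves 1, which is then assumed to vary like the other groups.

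Libraries with the same replicate number did not deviate together (correlations -0.15 to 0.13 over 26 pairs, against -0.15 to 0.18 over 52 pairs with different numbers), so the number was not taken as a pairing. With the replicate block 3221 genes were called between the passages, and *ZIC5* kept its call (adjusted p = 0.00639). The absence of read counts limits the values below 1 TPM most: an exact 0 gives no upper limit, and the pgEpiSCs levels of 5 of the 8 genes lie below 1 TPM.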

Other observations

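The nearest annotated protein-coding gene upstream of each of the 8 genes was looked up. Of these, 5 are not among the 8 and were in the table by symbol, *ZIC4* among them, and each stood higher in both pgEpiSCs-MPCs libraries than in every pgEpiSCs library, beside 47.5% of all genes called higher in this comparison. *HHLA1*, on the same strand and 10570 bases before *OC90*, had 8.09 and 8.41 TPM in pgEpiSCs-MPCs, against 0 TPM in all 6 pgEpiSCs libraries, and 0, 0.145 and 0 TPM in pgEpiSCs-MCs. *KLHDC7A*, on the same strand and 130050 bases before *PAX7*, had 11.5 and 13.5 TPM in pgEpiSCs-MPCs, against 0.467 TPM at most in pgEpiSCs, and 0.087, 0 and 0 TPM in pgEpiSCs-MCs, where *PAX7* still had 7.92 to 9.20 TPM. *MVB12B*, 101482 bases from *LMX1B*, had 34.7 and 34.1 TPM in pgEpiSCs-MPCs, against 6.77 to 8.32 TPM in pgEpiSCs, and 20.4 to 23.1 TPM in pgEpiSCs-MCs. *RCN1*, 257481 bases from *PAX6*, had 263 and 257 TPM in pgEpiSCs-MPCs, against 162 to 203 TPM in pgEpiSCs, and 684 to 716 TPM in MPC-Dif. These genes were looked at after the values of the 8 genes were known.

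*ZIC1* and *PAX6* were present in MPC-Dif (74.7 to 77.2 and 21.4 to 25.8 TPM) while *ZIC2*, *ZIC4*, *ZIC5* and *PAX3* were at 4.42 TPM or below in every library. Other genes of the brain lists were divided in MPC-Dif: of 11 midbrain and hindbrain genes 6 lay above 0.5 TPM in every library, *EN1* (12.6 ± 1.35 TPM, n = 3) among them, and 4 were listed at 0, among them *EN2* and *GBX2*, and of 10 forebrain and eye genes 4 lay above 0.5 TPM, *EMX2* (31.4 ± 4.19 TPM) among them, and 4 were listed at 0. Here the 4 neuron markers summed to 1.56 to 2.81 TPM.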
